A study of Mus musculus with 22 samples.

Results

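The 10 genes described here encode the collagen hydroxylases and the chaperones that act on procollagen in the endoplasmic reticulum (ER): the prolyl 4-hydroxylase subunits P4ha1, P4ha2, P4ha3 and P4hb, the lysyl hydroxylases Plod1, Plod2 and Plod3, the prolyl 3-hydroxylase P3h1 with its partner Crtap, and the chaperone Serpinh1 (HSP47). They were taken by symbol from a table of 55414 genes, and all 10 were present and passed the filter on low counts. RNA was sequenced from fibroblasts sorted from mouse back skin 1, 2 or 4 days after surgery. In the EXP arm an expander hydrogel had been stitched in place under the skin near the neck, and in the CTRL arm the same incision and subcutaneous path were made but no expander was placed, so both arms carried a surgical wound. Cells were gated as live, free of CD31, CD45, CD117 and EpCAM, and positive for CD34 and PDGFRα. The 22 libraries form 6 groups: on day 1, 4 were CTRL and 5 EXP; day 2 contributed 3 per arm; on day 4, 4 were CTRL and 3 EXP. Strain, genotype, sex and age, and whether a library came from 1 mouse or from pooled mice, are not given in the sources used here, so the p-values below measure the spread between these libraries, which may be technical in part.

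Collagen chains are modified as they enter the ER and before they fold. Prolyl 4-hydroxylase joins a catalytic α subunit (P4ha1, P4ha2 or P4ha3) to the β subunit P4hb, which is also the general protein disulfide isomerase, and makes the 4-hydroxyproline that keeps the triple helix stable at body temperature. Lysyl hydroxylases modify lysines that later carry sugars and crosslinks: Plod1 acts mainly on the helix, Plod2 on the telopeptides, whose hydroxylysines direct the type of crosslink, and Plod3 also transfers glucose to hydroxylysine. P3h1, Crtap and cyclophilin B form the complex that 3-hydroxylates selected prolines, and Serpinh1 holds the folded trimer until it leaves for the Golgi. Dermal fibroblasts make most of the fibrillar collagen of skin, and loss of several of these genes gives brittle bone and connective tissue disorders.

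The libraries held 21461294 to 30210204 counts, and 3 counts, taken as the smallest detectable level, equalled 0.0993 to 0.140 CPM (counts scaled by the library total). Such floors cover counting error only. All 9 fibroblast markers examined, Pdgfra and Cd34 of the sort among them, were above 3 counts in every library, but both sort markers differed between the arms. The log2 fold change of Cd34 by edgeR was -1.74, -2.07 and -0.93 on days 1, 2 and 4 (adjusted p = 8.10e-04, 0.00379 and 0.0948). That of Pdgfra was 0.84, 1.71 and 0.79 (adjusted p = 0.0154, 0.00134 and 0.0456). Ptprc (CD45), Adgre1 and Itgam did not exceed 0.292 CPM in any library. The other 4 haematopoietic markers reached 31.5 CPM for Cd68, 38.1 for Cd3e, 5.45 for S100a8 and 4.47 for Lyz2. By edgeR, Cd68 was higher in EXP on days 1 and 2 (adjusted p = 0.0208 and 0.0217), S100a8 on days 1, 2 and 4 (0.0131, 0.0165 and 0.00907) and Cd3e on day 4 (0.0115). The libraries also fell into a high and a low set for 191 genes that move with Rnf10, chosen by a correlation above 0.9 after group means were removed. The high set held 7 libraries, 3 CTRL and 2 EXP of day 1 and CTRL replicates 3 and 4 of day 4. Its mean log2 CPM of these genes was at least 4.82, against at most 4.12 in the low set. No label gives a batch, and results that change with this split are given with and without it.

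Expression was compared between EXP and CTRL with edgeR's quasi-likelihood test, and genes with an adjusted p (Benjamini-Hochberg over all 17554 genes tested) under 0.05 were called. On day 1, 5 of the 10 genes were called lower in EXP, namely P4ha1, P4ha2, Plod1, P3h1 and Serpinh1. Of all genes tested, 28.6% were called on that day and 14.7% were called lower. None of the 10 was higher on day 1 by edgeR, by DESeq2 or at an unadjusted p under 0.05 (0 genes in each case). Of all genes, 13.9% were called higher by edgeR, and among 10 genes a count of 0 lies near that share. On day 2, P4ha1, P4ha2 and Serpinh1 were lower and P4ha3 and Plod2 were higher, while 13.4% of all genes tested were called, 5.71% lower and 7.72% higher. On day 4, P4ha2 and Crtap were lower and P4ha3 and Plod2 were higher, with 22.5% of all genes called, 9.66% lower and 12.8% higher. The median log2 fold change over the 10 genes was -0.96, -0.52 and -0.16 on days 1, 2 and 4, against 0.017, 0.021 and 0.031 over all genes tested. Every EXP library lay below every CTRL library for the 5 called genes on day 1, for the 3 called lower on day 2 and for P4ha2 on day 4, as did 12.2%, 18.4% and 11.8% of all genes. Every EXP library lay above for P4ha3, Plod2 and Plod3 on day 2 and for P4ha3, P4hb and Plod2 on day 4, as did 20.9% and 13.8% of all genes, and for 0 of the 10 on day 1 (11.7% of all genes). In bulk RNA, fewer cells of a kind and less RNA per cell cannot be told apart.

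**Figure D1:**
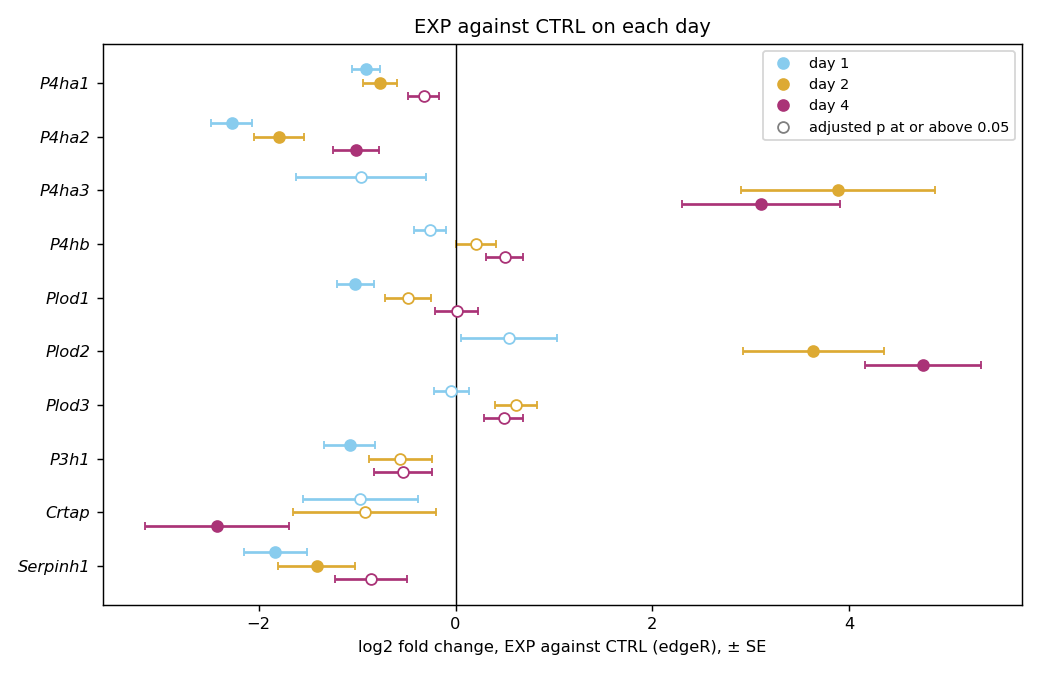
Log2 fold change of EXP against CTRL for the 10 genes on days 1, 2 and 4 (horizontal axis, ± SE from edgeR), with filled points for genes called and open points for those not called. P4ha2 lies left of 0 on all 3 days, and P4ha3 and Plod2 lie far to the right on days 2 and 4.

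Only P4ha2 was called in the same direction on all 3 days, as were 1.78% of all genes tested in the downward direction. The EXP effect itself differed between days for 3 of the 10 genes, P4ha2, P4ha3 and Plod2 (edgeR joint test, adjusted p = 0.0293, 0.0151 and 0.00347), against 8.82% of all genes. For the other members the difference between days did not pass, with Plod1 nearest at an adjusted p of 0.0638.

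P4ha1 and P4ha2, the main catalytic α subunits of prolyl 4-hydroxylase, were both lower under the expander on days 1 and 2. The 250 bases upstream of each transcription start are shown here because these genes are known from other cells as targets of hypoxia-inducible factor, which binds the core letters ACGTG or GCGTG. Those of 2 further members are shown beside them, P4ha3 because it was higher on days 2 and 4, and Serpinh1 because it was also lower on days 1 and 2. The sequences are RefSeq's, build GRCm38.p6, written 5′ to 3′ on the gene's strand, with each ACGTG or GCGTG on either strand in capitals.
P4ha1 (chr10:59323046-59323295, plus strand): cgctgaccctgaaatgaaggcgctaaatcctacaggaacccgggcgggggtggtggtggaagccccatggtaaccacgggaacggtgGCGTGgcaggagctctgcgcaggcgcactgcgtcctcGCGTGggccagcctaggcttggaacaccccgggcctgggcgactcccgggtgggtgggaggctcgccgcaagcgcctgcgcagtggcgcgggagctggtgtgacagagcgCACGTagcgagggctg
P4ha2 (chr11:54100674-54100923, plus strand): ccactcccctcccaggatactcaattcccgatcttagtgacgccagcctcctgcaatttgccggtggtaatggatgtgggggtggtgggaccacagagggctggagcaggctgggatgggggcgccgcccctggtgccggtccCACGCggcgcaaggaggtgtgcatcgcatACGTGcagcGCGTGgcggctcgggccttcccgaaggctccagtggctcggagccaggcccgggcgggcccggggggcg
P4ha3 (chr7:100285270-100285519, plus strand): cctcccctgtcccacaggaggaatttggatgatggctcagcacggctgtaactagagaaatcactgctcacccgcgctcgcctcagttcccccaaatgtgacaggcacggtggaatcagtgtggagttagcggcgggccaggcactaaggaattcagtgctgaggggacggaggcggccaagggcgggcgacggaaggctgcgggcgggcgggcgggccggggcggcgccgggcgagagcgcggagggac
Serpinh1 (chr7:99353240-99353489, minus strand): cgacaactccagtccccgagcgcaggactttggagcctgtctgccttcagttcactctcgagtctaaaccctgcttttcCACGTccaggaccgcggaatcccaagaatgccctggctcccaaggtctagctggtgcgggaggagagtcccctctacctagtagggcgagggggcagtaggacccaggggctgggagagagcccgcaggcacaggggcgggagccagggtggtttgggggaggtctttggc
P4ha1 and P4ha2 each held 1 ACGTG and 2 GCGTG in this window, Serpinh1 held 1 ACGTG and no GCGTG, and P4ha3 held neither. Of the 9 members with a RefSeq entry, 8 held ACGTG or GCGTG, as did 38.6% of 32851 mouse promoters of the same length. Members were counted per gene and promoters per entry, and P3h1 had 2 entries, both with these letters. The bases downstream of the Crtap window were not found in a Crtap transcript of GENCODE M21, so that window is less certain. G and C made up 53.6% (Crtap) to 70% (P4ha2) of the members' windows, against a median of 52.4% over all promoters, and the share of promoters with these letters was not adjusted for that. CCAAT on either strand was present in 3 members and in 33.8% of promoters. The ER stress element, CCAAT and CCACG with 9 bases between, was present in no member and in 0.113% of promoters. Such matches describe letters and not binding.

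P4ha2 was the member lowest relative to CTRL on day 1. Its levels on day 1 were 279, 272, 331 and 311 CPM in the 4 CTRL libraries and 66.0, 78.3, 58.7, 47.2 and 58.0 CPM in the 5 EXP libraries. On day 2 they were 375, 327 and 466 CPM in CTRL and 80.6, 141 and 116 CPM in EXP, and on day 4 439, 334, 435 and 304 CPM in CTRL and 119, 236 and 208 CPM in EXP. Every EXP library was below every CTRL library of its day. The log2 fold change was -2.28 ± 0.21 (SE) on day 1, a 4.84-fold lower level (adjusted p = 1.47e-06). It was -1.79 ± 0.25 on day 2 (adjusted p = 1.83e-04) and -1.01 ± 0.23 on day 4 (adjusted p = 0.00572), and all EXP libraries of day 4 lay above those of day 1. Within the EXP arm P4ha2 changed over the days (adjusted p = 2.24e-04), from a mean of 61.6 ± 11.5 CPM (SD, n = 5) on day 1 to 188 ± 60.9 CPM (n = 3) on day 4. The day 4 call was lost when day 4 was fitted on its own libraries (-1.03, adjusted p = 0.0597) and among its 5 libraries of the low set (-1.04, adjusted p = 0.205).

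P4ha1, the most broadly expressed α subunit, showed a smaller difference. On day 1 it was 268, 265, 241 and 201 CPM in CTRL and 134, 143, 132, 112 and 125 CPM in EXP, with no overlap. On day 2 it was 222, 159 and 220.4 CPM in CTRL and 109.7, 129.9 and 114 CPM in EXP, again without overlap. On day 4 the arms overlapped, at 229, 234, 236 and 189 CPM in CTRL and 152, 215 and 164 CPM in EXP. The log2 fold changes were -0.91 ± 0.14 (adjusted p = 9.46e-05), -0.77 ± 0.17 (adjusted p = 0.00601) and -0.32 ± 0.16 (adjusted p = 0.150), so day 4 was not called, with a 95% interval of -0.67 to 0.016. Whether its effect changed between days was not shown (joint adjusted p = 0.157). Scaling by library totals without TMM ended the day 2 call (-0.29, adjusted p = 0.200).

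P4ha3, an α subunit of low abundance in most adult tissues, went the other way on days 2 and 4. On day 2 it was 0.448, 0.522 and 0.225 CPM in CTRL, from 9, 10 and 5 counts, and 4.65, 5.86 and 7.13 CPM in EXP. On day 4 it was 0.193, 0.129, 1.76 and 3.29 CPM in CTRL, from 4, 3, 42 and 76 counts, and 12.9, 18.5 and 3.50 CPM in EXP. The EXP libraries lay above all CTRL libraries on both days, although EXP replicate 3 of day 4, at 3.50 CPM, was only just above the highest CTRL library. The log2 fold change was 3.88 ± 0.99 on day 2 (adjusted p = 0.0137) and 3.10 ± 0.80 on day 4 (adjusted p = 0.0109). On day 1 the arms overlapped, at 9.72, 6.06, 14.1 and 3.29 CPM in CTRL and 3.81, 8.24, 4.39, 3.88 and 0.984 CPM in EXP, and it was not called (-0.96 ± 0.66, adjusted p = 0.295). All CTRL libraries of day 1 were above those of day 2, and the change over days within CTRL had an adjusted p of 0.0520. The means on days 1, 2 and 4 were 8.29, 0.398 and 1.34 CPM in CTRL and 4.26, 5.88 and 11.6 CPM in EXP. The change over days within EXP was not called. Leaving out any of the 3 CTRL libraries of day 2 ended the day 2 call (adjusted p = 0.0521, 0.0506 and 0.0657). Day 4 lost its call without EXP replicate 2 (adjusted p = 0.0570), when fitted alone (0.0870) and within the low set (6.14, adjusted p = 0.109).

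The β subunit P4hb, which is present in excess of the α subunits in most cells, was not called on any day. It ranged from 813 to 1164 CPM in CTRL and 704 to 1148 CPM in EXP on day 1, from 892 to 1222 and 1181 to 1220.0 on day 2, and from 859 to 1152 and 1193 to 1759 on day 4. On day 4 every EXP library was above every CTRL library. The log2 fold change was -0.26 ± 0.17 on day 1 (adjusted p = 0.256), 0.21 ± 0.20 on day 2 (adjusted p = 0.540) and 0.50 ± 0.19 on day 4 (adjusted p = 0.0587). Within EXP its level changed over the days (adjusted p = 0.0138), with means of 845 ± 174, 1201 ± 19.4 and 1445 ± 288 CPM on days 1, 2 and 4. The day 4 difference was called by DESeq2 (adjusted p = 0.0355), without TMM (0.83, adjusted p = 0.00321), without the 10 genes of most counts in the totals (0.57, adjusted p = 0.0218) and without EXP replicate 3 (0.64, adjusted p = 0.0237), and day 2 was called without TMM (0.69, adjusted p = 0.0184).

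The α subunits also differed between the arms in their proportions and in relation to P4hb. Levels per kilobase of exon were used for this, and the shares are given as descriptions without a test. P4ha2 made up 43.7 ± 5.01% (SD, n = 4) of the summed α subunits in CTRL and 23.0 ± 1.62% (n = 5) in EXP on day 1. The shares were 56.1 ± 3.04% and 36.7 ± 4.63% on day 2 (n = 3 and 3), and 52.5 ± 3.36% and 38.7 ± 6.65% on day 4 (n = 4 and 3). CTRL and EXP libraries did not overlap on any day. These values depend on the length used, here all exons of a gene joined. With the length of the longest transcript, the share of P4ha2 was 60.5 ± 4.83% in CTRL and 37.1 ± 2.10% in EXP on day 1, 71.9 ± 2.52% and 53.2 ± 5.01% on day 2, and 68.8 ± 2.91% and 55.1 ± 7.22% on day 4, again with no overlap on any day. Which of P4ha1 and P4ha2 was the larger changed with the length: P4ha2 was above P4ha1 in 0 of 11 EXP libraries by joined exons and in 5 of 11 by the longest transcript. P4ha3 reached 1.5 to 6.82% of the sum in EXP on day 4, against 0.0372 to 1.10% in CTRL. P4hb RNA per summed α subunit RNA was 3.25 ± 0.645 in CTRL and 6.88 ± 0.743 in EXP on day 1. It was 3.27 ± 0.178 and 8.80 ± 1.51 on day 2, and 3.12 ± 0.410 and 6.68 ± 1.23 on day 4, and all EXP libraries were above all CTRL libraries of their day. By the longest transcript the means were 2.20 ± 0.371 and 5.46 ± 0.543 on day 1, 2.06 ± 0.0771 and 6.30 ± 1.30 on day 2, and 2.01 ± 0.304 and 4.71 ± 1.08 on day 4, and the arms did not overlap on any day. P4hb itself was not called on any day, while P4ha1 and P4ha2 were both called lower on days 1 and 2. On day 4 P4ha2 was called lower and P4ha1 was not, and P4hb was above CTRL in every EXP library. Mean P4hb per kilobase was then 357 ± 46.9 CPM in CTRL and 505 ± 101 CPM in EXP. The day 4 ratio therefore holds a higher P4hb as well as a lower P4ha2. How many of all genes would separate the arms over the same sum was not computed.

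**Figure D2:**
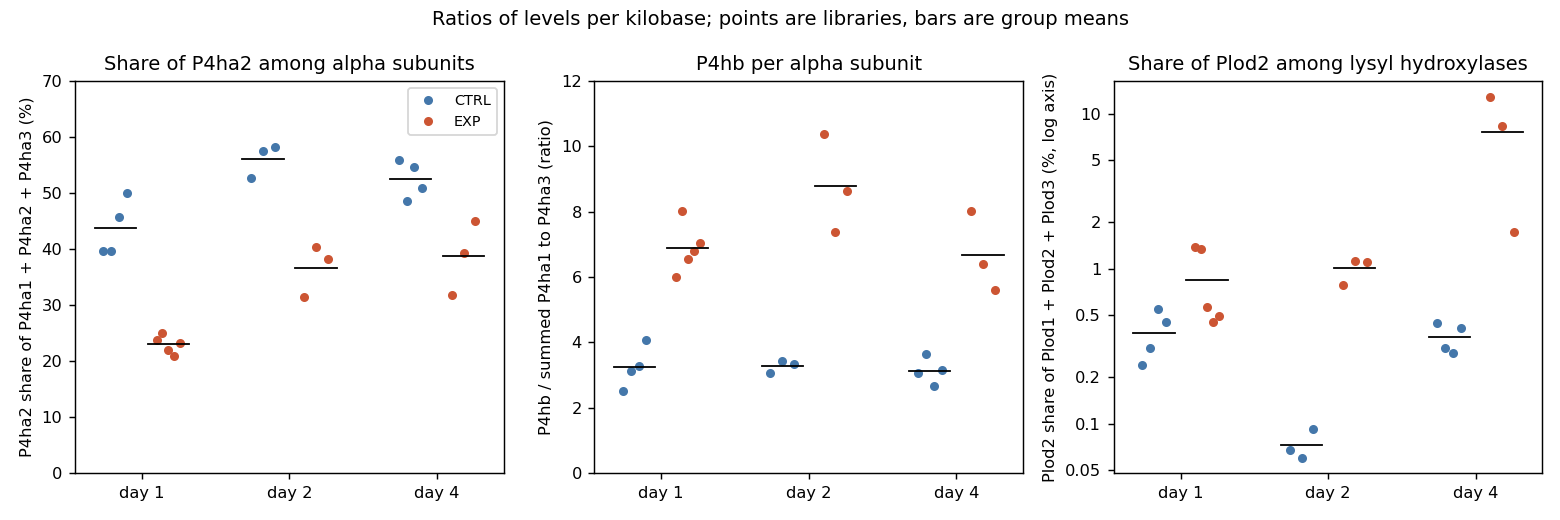
Ratios of levels per kilobase of joined exons in each library (points) with group means (bars) on days 1, 2 and 4: the share of P4ha2 among the 3 α subunits in percent, P4hb per summed α subunit, and the share of Plod2 among the 3 lysyl hydroxylases in percent on a log axis. P4ha2's share is lower and P4hb per α subunit higher in every EXP library than in every CTRL library of the same day, and Plod2's share reaches 1.72 to 12.7% in EXP on day 4.

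Among the lysyl hydroxylases, Plod2, the telopeptide enzyme, had the largest log2 fold change on day 4 of the 10 genes. On day 1 it was low but above the floor in both arms, 1.32, 1.57, 2.75 and 2.14 CPM in CTRL and 4.40, 5.13, 1.71, 1.30 and 1.75 CPM in EXP. The arms overlapped on that day (0.55 ± 0.49, adjusted p = 0.428). On day 2 it was 0.249, 0.157 and 0.404 CPM in CTRL, from 5, 3 and 9 counts, at or near the floor of 3 counts. In EXP it was then 2.57, 3.97 and 3.83 CPM, from 78, 101 and 101 counts. On day 4 it was 1.55, 0.943, 1.22 and 1.69 CPM in CTRL and 60.3, 41.9 and 6.64 CPM in EXP, from 2249, 1208 and 186 counts in EXP. All EXP libraries exceeded all CTRL libraries on days 2 and 4, and the EXP libraries of day 4 differed widely among themselves. The log2 fold change was 3.63 ± 0.72 on day 2 (adjusted p = 0.00278) and 4.75 ± 0.59 on day 4 (adjusted p = 1.28e-04). Within EXP, Plod2 changed over the days (adjusted p = 1.33e-04), and within CTRL it was not called (adjusted p = 0.135). Between days 1 and 2 its mean went from 1.95 to 0.270 CPM in CTRL and from 2.86 to 3.46 CPM in EXP. On day 4 the means were 1.35 CPM in CTRL and 36.3 CPM in EXP. No library, left out alone, ended the day 2 or day 4 call, and the day 4 value within the 5 libraries of the low set was 4.86 (adjusted p = 0.152). An exon of Plod2 overlaps Gm38391 on the opposite strand, and whether counting used strand is not given in the sources used here.

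Beside Plod2 and P4ha3, markers of other cell types also differed in level between the arms. The summed level of 5 endothelial markers was 21.2 to 54.0 CPM in EXP and 3.53 to 7.89 CPM in CTRL on day 4, with 3 of 5 and 2 of 5 above 3 counts in all libraries, most of it Tek, and 2.01 to 8.50 and 0.160 to 0.652 CPM on day 2, while Cdh5 and Emcn stayed at or under 1.21 CPM in every library. The sum of 5 adipocyte markers on day 4 was 3.92, 39.9 and 146 CPM in EXP replicates 1, 2 and 3, where Plod2 was 60.3, 41.9 and 6.64 CPM, and 1.89 to 5.23 CPM in CTRL. On day 2 this sum was 7.67 to 56.9 CPM in EXP and 6.98 to 8.99 CPM in CTRL. The order of the 3 EXP libraries of day 4 by adipocyte markers was the reverse of their order by Plod2, as it was by fibroblast and by Schwann cell markers. By haematopoietic markers (48.2, 21.1 and 18.3 CPM in replicates 1, 2 and 3) it was the same as by Plod2. The other marker sums had neither order. The sum of 7 haematopoietic markers was 18.3 to 48.2 CPM in EXP and 1.82 to 10.4 CPM in CTRL on day 4, and 16.1 to 31.2 and 4.03 to 12.7 CPM on day 1. On day 2 it was 16.4 to 41.0 CPM in EXP and 5.15 to 10.1 CPM in CTRL, and the sum of melanocyte and mast cell markers was 19.3 to 39.5 and 4.40 to 10.8 CPM, both without overlap. Of the latter, Mlana reached 38.9 CPM and Tyr at most 0.106 CPM. Sox10, listed here as a Schwann cell marker, reached at most 0.258 CPM. The sum of pericyte and smooth muscle markers on day 2 was 14.9 to 27.1 CPM in EXP and 38.1 to 47.4 CPM in CTRL, also without overlap. The sum of 7 keratinocyte markers was 3.61 to 17.3 CPM in EXP and 8.67 to 45.5 CPM in CTRL on day 1. The sum of 9 fibroblast markers, most of it Col1a1 and Col1a2, was lower in EXP without overlap on each day, on day 4 only just. Taken singly, the 9 markers did not all go this way. By edgeR 1 was called higher and 3 lower on day 1, 1 and 4 on day 2, and 2 and 3 on day 4. The sum was 94433 to 120431 CPM in EXP and 144929 to 184372 CPM in CTRL on day 1. The ranges were 64871 to 130443 and 212590 to 233000 CPM on day 2, and 56697 to 173465 and 173521 to 212712 CPM on day 4. The part of these cell types in the differences of the 10 genes was not tested.

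Plod1, which hydroxylates helical lysines, was lower in EXP on day 1 alone. It was 473, 461, 411 and 414 CPM in CTRL and 206, 286, 208, 168 and 218 CPM in EXP on that day, with no overlap (-1.02 ± 0.19, a 2.02-fold lower level, adjusted p = 5.42e-04). On day 2 the ranges were 226 to 397 CPM in CTRL and 171 to 269 CPM in EXP (-0.49 ± 0.23, adjusted p = 0.179), and on day 4 they were 244 to 375 and 238 to 375 CPM (0.012 ± 0.22, adjusted p = 0.974). The arms overlapped on both later days. Plod3, the hydroxylase that also glycosylates hydroxylysine, was not called on any day. Its log2 fold change was -0.042 ± 0.18 on day 1 (adjusted p = 0.885), 0.62 ± 0.22 on day 2 (adjusted p = 0.0626) and 0.49 ± 0.20 on day 4 (adjusted p = 0.0813). On day 2 Plod3 was 91.9, 67.0 and 104 CPM in CTRL and 157, 114 and 131 CPM in EXP, with no overlap. Plod3 passed the test without TMM on day 2 (1.11, adjusted p = 0.00566) and day 4 (0.88, adjusted p = 0.0122), on day 2 also without the 10 genes of most counts in the totals (0.73, adjusted p = 0.0389) and in the fit of that day alone (adjusted p = 0.0462), and on day 4 without EXP replicate 3 (0.74, adjusted p = 0.00505). Its exons overlap those of Znhit1 on the opposite strand and of Mir702.

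Per kilobase, the lysyl hydroxylases were led by Plod1 in CTRL, at 68.7 ± 2.93%, 70.4 ± 1.31% and 67.8 ± 3.21% of their sum on days 1, 2 and 4. In EXP its share was 52.3 ± 5.01%, 52.1 ± 9.46% and 56.9 ± 15.8%. Plod3 held 30.9 ± 2.84% in CTRL and 46.9 ± 5.30% in EXP on day 1, without overlap. Plod3 itself was not called on that day, so its share carries the lower level of Plod1. Plod2 stayed the smallest of the 3 in every library. Its share was 0.364 ± 0.0783% in CTRL and 7.57 ± 5.53% in EXP on day 4, and 0.0732 ± 0.0166% and 1.00 ± 0.186% on day 2.

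**Figure D3:**
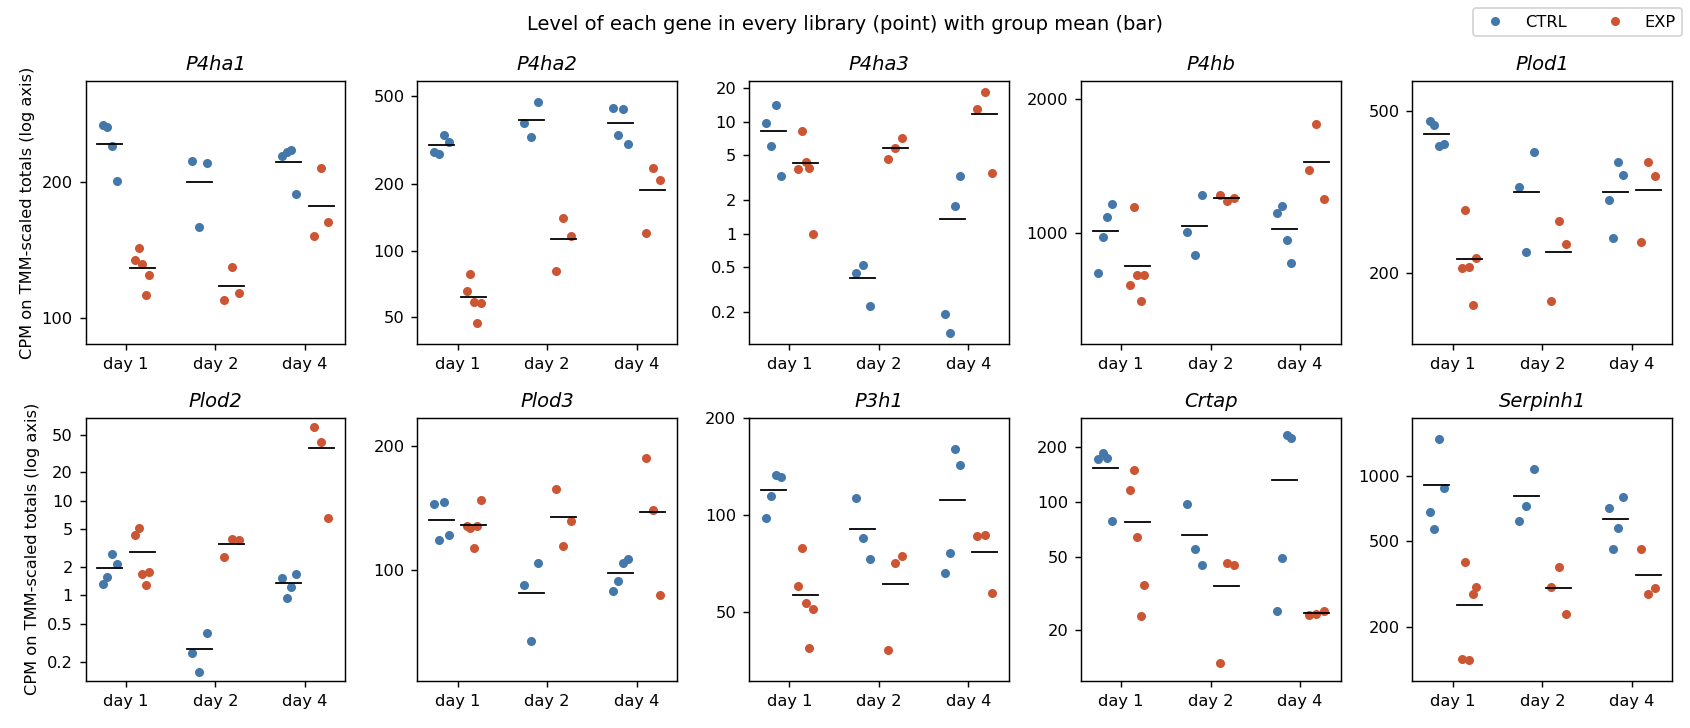
Level of each of the 10 genes in every library (points, CPM on TMM-scaled totals, log axes that differ between panels) with group means (bars), for CTRL and EXP on days 1, 2 and 4. P4ha2 is lower in all EXP libraries, Plod2 and P4ha3 are higher in EXP on days 2 and 4, and Crtap spreads widely within CTRL on day 4.

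Serpinh1, the collagen-specific chaperone, was lower in EXP on days 1 and 2. On day 1 it was 679.8, 569, 1492 and 887 CPM in CTRL and 143, 399.8, 141, 284 and 307 CPM in EXP. On day 2 it was 623, 732 and 1084 CPM in CTRL and 307, 379 and 231 CPM in EXP, and on day 4 711, 459.7, 574 and 804 CPM in CTRL and 461, 284 and 305 CPM in EXP. The arms did not overlap on days 1 and 2, and on day 4 EXP replicate 1, at 460.9 CPM, was just above the lowest CTRL library. The log2 fold change was -1.83 ± 0.32 on day 1, a 3.56-fold lower level (adjusted p = 2.95e-04), -1.41 ± 0.39 on day 2 (adjusted p = 0.0208) and -0.86 ± 0.37 on day 4 (adjusted p = 0.0941). The difference between days was not called (adjusted p = 0.363). The day 2 call ended without CTRL replicate 3, EXP replicate 1 or EXP replicate 3 (adjusted p = 0.0849, 0.0816 and 0.0867), without TMM (-0.95, adjusted p = 0.0905) and without the filter on low counts (adjusted p = 0.0557). On day 1, within the 5 libraries of the high set, the value was -1.78 (adjusted p = 0.0561). In that set P4ha1, P4ha2 and Plod1 kept their calls, at -0.93 (adjusted p = 0.0228), -2.06 (adjusted p = 0.00327) and -0.90 (adjusted p = 0.0381).

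P3h1, the prolyl 3-hydroxylase, was lower in EXP on day 1, at 98.2, 115, 133 and 131 CPM in CTRL and 60.4, 78.9, 53.4, 38.9 and 51.4 CPM in EXP without overlap (-1.07 ± 0.26, adjusted p = 0.00392). Within the high set of day 1 the value was -0.76 (adjusted p = 0.0605). On days 2 and 4 the arms overlapped, with log2 fold changes of -0.56 ± 0.32 (adjusted p = 0.261) and -0.53 ± 0.30 (adjusted p = 0.205).

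Crtap, the helper protein of P3h1, was called lower on day 4 only, and its level followed the split between libraries. On day 4 it was 25.4, 49.4, 232 and 224 CPM in CTRL replicates 1 to 4 and 24.1, 24.5 and 25.4 CPM in EXP. CTRL replicates 3 and 4, the high set of that day, were far above the rest, and CTRL replicate 1 was level with the EXP libraries. The log2 fold change was -2.43 ± 0.73 (adjusted p = 0.0241) over all libraries, -1.03 (adjusted p = 0.123) with the split as a covariate, and -0.60 (adjusted p = 0.334) within the low set. The call was also lost on leaving out CTRL replicate 3 or 4 (adjusted p = 0.0678 and 0.0650) or any of the 3 EXP libraries (0.0970, 0.0843 and 0.0504). On days 1 and 2 the arms overlapped, at 79.2 to 187 CPM in CTRL and 23.8 to 151 CPM in EXP on day 1 (-0.97 ± 0.59, adjusted p = 0.232), and on day 2 the log2 fold change was -0.92 ± 0.73 (adjusted p = 0.437). Over the 22 libraries the correlation of Crtap's log2 CPM with the split score was r = 0.940, and r = 0.940 after group means were removed. After group means were removed, P4ha3 had r = 0.723 and P3h1 r = 0.677 with that score. Crtap itself met the correlation limit that defines the split and was left out of the score. With group means left in, P3h1 had r = 0.541, P4hb r = -0.547 and P4ha2 r = 0.106 over the same libraries, which share their groups.

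**Figure D4:**
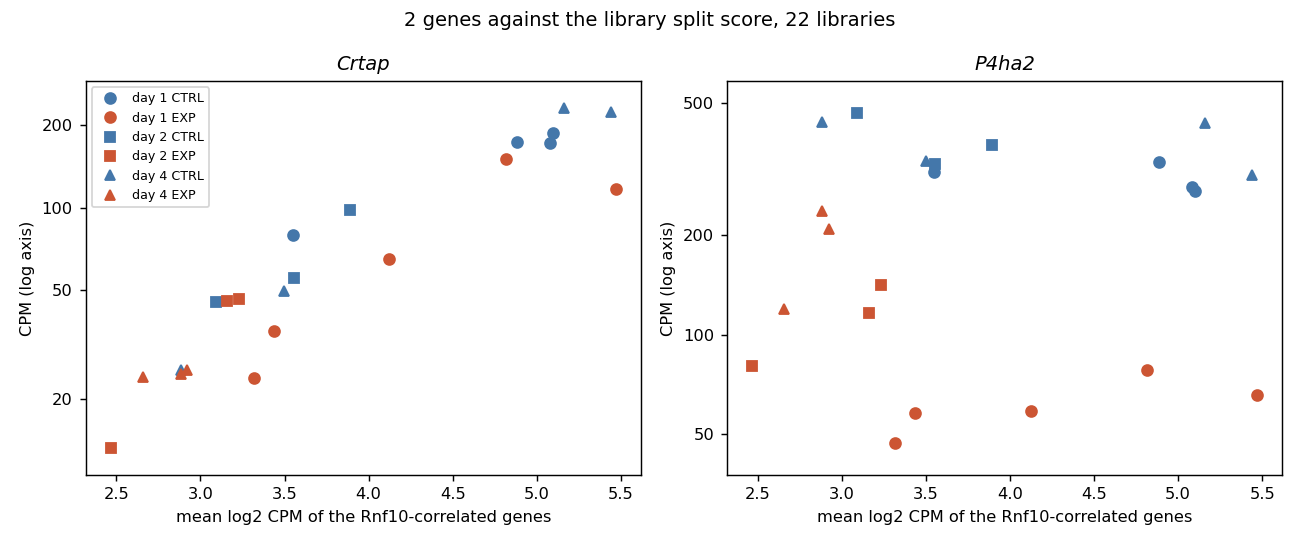
CPM of Crtap and P4ha2 in the 22 libraries (log axis) against the mean log2 CPM of the genes correlated with Rnf10, by day (symbol) and arm (colour). Crtap rises with the score across all groups, while P4ha2 separates by arm at every score.

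By level per kilobase of joined exons, the 10 genes were led by P4hb and Serpinh1. Over the 11 CTRL libraries P4hb averaged 357 ± 47.0 CPM per kilobase (SD) and Serpinh1 321 ± 119, which did not differ beyond their spread. Crtap (68.9 ± 43.5), P4ha2 (56.5 ± 10.8), P4ha1 (54.4 ± 7.72) and Plod1 (53.4 ± 12) followed and likewise overlapped. P3h1 (28.2 ± 8.12) and Plod3 (23.8 ± 5.22) came next, and P4ha3 (1.15 ± 1.47) and Plod2 (0.236 ± 0.149) were the lowest and overlapped. By the longest transcript P4hb and Serpinh1 still had the highest means, but P4ha2, at 115 ± 22 (88.9 to 152), lay above P4ha1, at 55.4 ± 7.85 (39.4 to 66.2), without overlap, and Plod1 was 88.2 ± 19.9.

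Changes over the days were called in the EXP arm. Libraries of different days may also have been processed apart, so time and processing cannot be told apart in any comparison between days. Within EXP, P4ha1, P4ha2, P4hb and Plod2 changed over days 1, 2 and 4 (edgeR joint test, adjusted p = 0.0385, 2.24e-04, 0.0138 and 1.33e-04), 4 of 10 genes against 14.3% of all genes tested. P4ha1 averaged 129 ± 11.6, 118 ± 10.7 and 177 ± 33.5 CPM on the 3 days. Within CTRL, 0 of 10 were called by edgeR, against 0.291% of all genes, with 4 at an unadjusted p under 0.05 and 2 called by DESeq2. Without EXP replicate 2 of day 4, 2 of the 4 calls within EXP were left.

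The main fibrillar collagens, substrates of these enzymes, took a smaller share of counts in EXP, with overlap between the arms on day 4 alone. Col1a1, Col1a2 and Col3a1 together took 22.9 ± 2.19% of counts in CTRL and 12.2 ± 2.34% in EXP on day 1, 28.6 ± 1.92% and 12.2 ± 4.73% on day 2, and 26 ± 3.59% and 16.4 ± 7.27% on day 4. The level of each gene per 1000 of these collagens, all per kilobase, was compared as a description. On day 1 P4hb and Plod3 were above CTRL in every EXP library, 2 of 10 genes where 44.0% of all genes tested were. P4ha2 was the member below CTRL in every EXP library, as were 1.07% of all genes, at 0.434 times the CTRL mean (0.801 against 1.85 per 1000). Serpinh1 stood at 0.559 times its CTRL mean with overlapping libraries, and P4ha1, P4ha3, Plod1, P3h1 and Crtap stood between 0.988 and 1.14 times. On day 2, 7 of 10 genes were above CTRL in every EXP library, a share close to the 76.8% of all genes, and P4ha2 stood at 1.02 times. On day 4, P4ha3, Plod1 and Plod2 were, 3 of 10 against 23.5% of all genes, with P4ha2 at 1.07 and Serpinh1 at 1.5 times. The Serpinh1 value rests on EXP replicate 1 of day 4, and without that library the ratio was 0.745 times. For P4ha2 the ratio lay on either side of 1 as libraries were left out, from 0.857 to 1.12 on day 2 and from 0.953 to 1.28 on day 4. For P4ha2 the arms overlapped in this ratio on days 2 and 4.

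**Figure D5:**
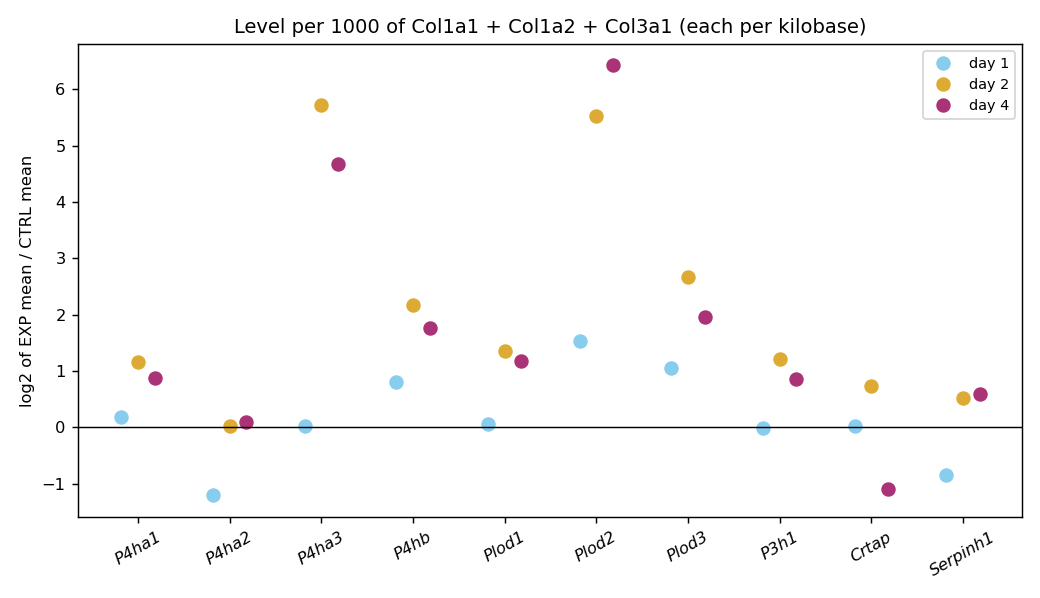
Level of each gene per 1000 of summed Col1a1, Col1a2 and Col3a1, each per kilobase, shown as log2 of the EXP mean over the CTRL mean on days 1, 2 and 4, with 0 marking equal ratios. P4ha2 and Serpinh1 lie below 0 on day 1 and Crtap on day 4, while most other points lie at or above 0.

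Other genes that modify or export collagen in the ER were mostly called lower on day 1, and fewer were on days 2 and 4. Of 20 such genes, 12 were called lower and 1 higher on day 1, 8 and 1 on day 2, and 4 and 0 on day 4, with median log2 fold changes of -0.73, -0.84 and -0.48 (all genes tested: 0.017, 0.021 and 0.031). Sec24d, a coat subunit needed for procollagen export, was lower on all 3 days, at -0.98 ± 0.13 (adjusted p = 2.46e-05), -0.99 ± 0.16 (adjusted p = 6.63e-04) and -0.82 ± 0.15 (adjusted p = 0.00138). Tmem38b, an ER cation channel whose loss impairs collagen modification, was higher on day 1 at 1.63 ± 0.24 (adjusted p = 5.67e-05) and on day 2 at 1.56 ± 0.28 (adjusted p = 0.00135), and was 0.63 ± 0.26 (adjusted p = 0.0775) on day 4.

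Of 12 procollagen chains, 8 were lower and 0 higher on day 1, 5 and 2 on day 2, and 1 and 3 on day 4, with medians of -0.94, -0.63 and -0.14. Col5a1, a chain that starts fibril assembly, was -1.52 ± 0.21 (adjusted p = 3.44e-05) on day 1, -1.41 ± 0.26 (adjusted p = 0.00144) on day 2 and -0.083 ± 0.24 (adjusted p = 0.832) on day 4. Col12a1, a fibril-associated collagen, was -0.088 ± 0.56 (adjusted p = 0.925) on day 1 and rose, at 5.50 ± 0.82 (adjusted p = 4.58e-04) on day 2 and 5.26 ± 0.72 (adjusted p = 2.44e-04) on day 4. Of the 5 Lox family genes, whose products crosslink the lysines and hydroxylysines outside the cell, 0 were higher and 1 lower on day 1, 2 and 1 on day 2, and 3 and 1 on day 4, with medians of -0.0073, 0.83 and 1.21. Loxl1 was 0.18 ± 0.24 (adjusted p = 0.608), 1.55 ± 0.30 (adjusted p = 0.00201) and 1.80 ± 0.27 (adjusted p = 3.21e-04), and Loxl3 was -0.0073 ± 0.57 (adjusted p = 0.994), 3.15 ± 0.76 (adjusted p = 0.0103) and 4.18 ± 0.70 (adjusted p = 8.34e-04) on the 3 days. Col12a1, Loxl1 and Loxl3, like Plod2 and P4ha3, were not called on day 1 and were higher on days 2 and 4.

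General ER chaperones and unfolded protein response genes did not keep the day 1 difference, and their levels changed over the days mostly in CTRL. Over the days 8 of 17 were called within CTRL and 1 within EXP (edgeR joint test), against 0.291% and 14.3% of all genes. Of 17, 11 were lower and 1 higher on day 1, 1 and 0 on day 2, and 4 and 0 on day 4, and the median log2 fold change went from -0.58 to 0.31 and -0.078. Pdia4, a disulfide isomerase related to P4hb, was -1.44 ± 0.24 (adjusted p = 1.73e-04) on day 1 and 0.57 ± 0.29 (adjusted p = 0.206) on day 2. Creld2, a chaperone induced by ER stress, was -1.31 ± 0.20 (adjusted p = 8.99e-05) and -0.049 ± 0.24 (adjusted p = 0.922). From day 1 to day 2 the mean of Pdia4 went from 485 to 164 CPM in CTRL and from 178 to 243 CPM in EXP. That of Creld2 went from 238 to 84.6 CPM in CTRL and from 95.9 to 81.7 CPM in EXP. Of 15 tested targets of hypoxia-inducible factor outside the family, 5 were higher and 1 lower on day 1, 3 and 2 on day 2, and 5 and 1 on day 4, with medians of 0.44, -0.44 and 0.25. Ldha, the lactate dehydrogenase subunit, was 1.06 ± 0.14 (adjusted p = 3.08e-05), 0.71 ± 0.17 (adjusted p = 0.00909) and 0.87 ± 0.16 (adjusted p = 0.00125), and the glucose transporter Slc2a1 was 1.26 ± 0.19 (adjusted p = 6.27e-05), 0.88 ± 0.22 (adjusted p = 0.0117) and 1.24 ± 0.20 (adjusted p = 5.63e-04). These 2 genes had the smallest joint p of a list that also held genes called lower on each day. The part of hypoxia-inducible factor in the levels of P4ha1 and P4ha2 was not tested. Of 10 other 2-oxoglutarate dioxygenases and genes that supply their cofactors, 2 were higher and 4 lower on day 1, 1 and 0 on day 2, and 1 and 0 on day 4, with medians of 0.0056, -0.10 and -0.014. Tfrc, the transferrin receptor that brings in the iron these enzymes need, was 1.61 ± 0.27 (adjusted p = 1.91e-04), 1.10 ± 0.31 (adjusted p = 0.0246) and 0.93 ± 0.29 (adjusted p = 0.0252). Idh1, a source of 2-oxoglutarate, was -0.73 ± 0.17 (adjusted p = 0.00259) on day 1, 0.13 ± 0.20 (adjusted p = 0.728) on day 2 and 0.29 ± 0.19 (adjusted p = 0.279) on day 4.

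The genes of most similar pattern were taken by Pearson correlation of log2 CPM over the 22 libraries, among the 9813 genes whose mean reached 5 CPM. The libraries share their groups, so these values mix differences between groups with differences between libraries of a group. For P4ha2 they were Rftn2 (r = 0.973), the γ-glutamyl carboxylase Ggcx (r = 0.972) and Lpin3 (r = 0.965). For Plod2 they were the heparan sulfate endosulfatase Sulf1 (r = 0.927), the prostacyclin synthase Ptgis (r = 0.914) and the sphingosine 1-phosphate receptor S1pr3 (r = 0.912), and for P4ha3 Hhipl1 (r = 0.864), Fhl2 (r = 0.863) and the NADPH oxidase Nox4 (r = 0.834). P4hb was closest to the oligosaccharyltransferase subunit Ddost (r = 0.936), Akr1a1 (r = 0.928) and Nans (r = 0.904), and Plod3 to Ncln (r = 0.921), Sh3gl1 (r = 0.889) and Alg8 (r = 0.859). P4ha1 was closest to Phkb (r = 0.908), Fam3a (r = 0.901) and Suox (r = 0.90), and Plod1 to AK157302 (r = 0.898), Suox (r = 0.890) and Txndc15 (r = 0.889). P3h1 was closest to Gpr180 (r = 0.898), Txndc5 (r = 0.889) and Ptprs (r = 0.860), and Serpinh1 to Pja1 (r = 0.867), Gmppa (r = 0.867) and Ly6e (r = 0.865). Crtap, which follows the split between libraries described above, was closest to Rab2a (r = 0.983), Ppm1m (r = 0.975) and Txndc11 (r = 0.969).

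Among the members themselves P4ha1 and P4ha2 were the most alike pair, with r = 0.860, and r = 0.626 after group means were removed. P4ha2 and Serpinh1 had r = 0.788, which fell to 0.0651 once group means were removed. P3h1 and Crtap, partners in one complex, had r = 0.746 and, without group means, 0.845, and both follow the split between libraries described above. Plod2 and P4ha3 had r = 0.701 and, without group means, 0.436.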

How the data were processed

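The authors deposited 1 table of raw read counts per gene for the 22 libraries. Per the submitters' processing notes, Trimmomatic and the mm39 build were used, and the aligner, counting tool and strandedness are not given in the sources used here. Per the labels' protocols, libraries were ultra-low-input and read in pairs. GENCODE M21 gave symbols for 52081 of 55414 identifiers and exon lengths, and RefSeq gave promoters of build GRCm38.p6.

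Genes were kept by filterByExpr (minimum count 10, 17554 genes), scaled by TMM and fitted with edgeR 4.0.16 in R 4.3.3 (robust glmQLFit and glmQLFTest, 6 group means, 16 residual degrees of freedom). P-values were adjusted within each contrast. CPM were computed on totals scaled by TMM (prior count 2 for log2 CPM), and SE is the absolute log2 fold change over the root of F. The test was tried on simulated data. Alternatives were DESeq2 1.42.0, other scalings, no filter, days alone, a replicate block, the library split and each library left out. Chi-square per gene between replicates was 29.3 to 451, so none were merged. From each other list, the 2 genes with the smallest joint p over the 3 days are named, and for each member the 3 genes of highest correlation. Members, lists and tests were chosen with earlier results of these data known.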

Additional observations from a re-analysis of the deposited data

Results flagged for a closer look

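The EXP effect on P4ha2, P4ha3 and Plod2 differed between days 1, 2 and 4 in the joint test of edgeR (adjusted p = 0.0293, 0.0151 and 0.00347). For P4ha2 all 11 EXP libraries were below the CTRL libraries of their day and the gap was widest on day 1. For P4ha3 and Plod2 all 6 EXP libraries of days 2 and 4 were above the CTRL libraries of their day, and the arms overlapped on day 1.

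In 3 of the 30 combinations of gene and group with 4 or 5 libraries, 1 library stood apart by Dixon's test at the 95% level, where chance gives about 1.5. P4ha1 was 188.8 CPM in CTRL replicate 4 of day 4, below the other 3 CTRL libraries. P4hb was 1148 CPM in EXP replicate 2 of day 1, above the other 4. Crtap was 79.2 CPM in CTRL replicate 4 of day 1, below the other 3, and this library was the only CTRL library of day 1 in the low set of the library split.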

How the results depend on the processing

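None of the 14 called differences of a member between the arms changed sign in any alternative run, and 5 of them were called in every one: P4ha1, P4ha2 and Plod1 on day 1, and P4ha2 and Plod2 on day 2. Without TMM the median log2 fold change of all genes shifted by 0.19, 0.47 and 0.33 on days 1, 2 and 4, and the share of called genes that were higher was 66.2%, 90.5% and 80.8%, against 48.6%, 57.5% and 57.0% with it. Calls of P4ha1 and Serpinh1 on day 2, and the absence of calls for P4hb and Plod3 on days 2 and 4, change with that scaling. Totals without the 10 genes of most counts moved that median by 0.10 on day 2.

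The number of members called changed as follows, and the cause was not tested. On day 1 it was 3 within the high set of libraries, and on day 4 it was 1 when that day was fitted alone and 0 within the low set, which leave fewer samples. For the effect differing between days it was 5 without TMM and 5 without the 10 genes of most counts. Within CTRL it was 2 by DESeq2, 2 without TMM and 1 without the 10 genes of most counts. With each library left out in turn it ran from 3 to 5 on day 2 (fewest without CTRL replicate 3), 2 to 5 on day 4 and 2 to 4 within EXP (fewest without EXP replicate 2 of day 4). It ran from 2 to 5 for the effect differing between days (most without EXP replicate 2 of day 1) and 0 to 1 within CTRL (most without CTRL replicate 4 of day 4).

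Whether replicate numbers pair the libraries is not given by the labels and was not settled by correlation. Of 10 same-numbered pairs, 3 correlated above 0.1 (-0.066 to 0.164), and 9 of 20 libraries correlated best with their own number. On day 4 each same-numbered pair was the best match of both its libraries (r = 0.0795, 0.146 and 0.109), and on day 2 no such pair was. A fit with the number as a replicate block called 0 members for the effect differing between days and 2 for the change within EXP, with Serpinh1 on day 2 at an adjusted p of 0.0559 and Crtap on day 4 at 0.197.

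Values near 0 changed sign. Plod3 on day 1 was 0.14 without TMM and -0.10 to 0.0075 over the libraries left out. Plod1 on day 4 was -0.0095 when fitted alone and -0.14 to 0.19 over the libraries left out. P3h1 on day 4 was 0.11 within the low set. The low counts of P4ha3 and Plod2 in CTRL limit the precision of their fold changes. The shares and levels by the longest transcript, and the ratios to collagen with libraries left out, were chosen after seeing the data.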
